A study of Mus musculus with 2 samples.

Results

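The 8 genes described here encode enzymes of cholesterol synthesis: Hmgcs1, Idi1, Fdps, Fdft1, Sqle, Lss, Cyp51 and Msmo1. They were chosen by name, reads of all their annotated transcripts were summed to genes, and all 8 were detected in both libraries, among 15523 named genes with at least 1 read. The tissue was interscapular brown fat, the depot between the shoulder blades that makes heat, and its native poly(A)+ RNA was read molecule by molecule on a nanopore. The mice were wild type C57BL/6N males of 20 weeks, kept in general at 22 to 24 °C. The cold library came from a pool of 3 mice housed singly at 4 °C for 24 h, and the control library (ctrl) carries no cold treatment in its treatment label. The number of mice behind the control library is not given in the sources used here, and the treatment protocol attached to it describes the cold exposure, which its treatment label contradicts. The extraction protocol speaks of eWAT samples, where the tissue label gives brown fat.

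Cholesterol is built from acetyl-CoA in the cytosol and the endoplasmic reticulum. Acetyl-CoA units are joined to HMG-CoA and reduced to mevalonate, mevalonate is turned into activated isoprene units, these are joined to the linear hydrocarbon squalene, and squalene is oxidised, folded into the ring system of lanosterol and trimmed to cholesterol. Genes of the pathway are classic targets of the transcription factor SREBP-2, which is released from the endoplasmic reticulum when membrane sterol is low, while the related SREBP-1c mainly drives fatty acid synthesis. Liver is the best known site of the pathway, but most cells can run it, adipocytes included.

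There was 1 library per group, so there was no spread between replicates and no test of the conditions, and no p-values are given. Depth was 1698124 reads for the control and 1215617 for the cold library. RPM stands for reads per 1000000 reads of a library. Values in parentheses are exact 95% counting intervals, which compare these 2 libraries and cover counting error only. Ratios are cold over control after scaling by edgeR's trimmed mean of M values (TMM), and a gene was called lower or higher where its interval lay wholly below or above 1. The brown adipocyte marker Ucp1, the uncoupling protein, had 14860 control and 14526 cold reads, a scaled ratio of 1.21 (1.18 to 1.23). Of 9 brown adipocyte markers, 5 had an interval above 1 and none below, beside 11.3% of all genes with 20 or more summed reads above 1. None of the 6 hepatocyte markers searched, Alb and Apoa1 among them, had a read in either library. With 3 reads as the limit that a count of 0 allows, each could reach 1.77 RPM in the control and 2.47 RPM in the other. Each of 12 skeletal muscle markers had an interval above 1, beside 11.3% of all genes with 20 or more summed reads. In the cold library the 12 together took 0.193% of reads against 0.0435% in the control. Of 7 white adipocyte markers, Tcf21 and Wt1 had no read in either library, 4 were higher and Lep was lower, with summed shares of 0.0132% and 0.0577%. The part of these differences in the values below was not tested. In whole tissue, fewer cells of a type and less RNA per cell cannot be told apart.

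The 8 enzymes together differed little between the libraries. Their summed reads were 623 (control) and 441 (cold), or 367 RPM (339 to 397) and 363 RPM (330 to 398). On the scaled counts this was 1.15-fold lower in the cold library (1.01 to 1.30), a ratio of 0.873 that moved to 0.989 (0.873 to 1.12) with total counts. The median log2 ratio of the 8 was -0.34, beside 0.00 over the 7515 genes with at least 20 summed reads. It was -0.03 with coding transcripts alone, or without the Lss transcript described below, and -0.01 with the most abundant transcript of each gene. The intervals of 2 enzymes, Fdft1 and Fdps, lay below 1, none lay above 1, and 6 spanned it. Among all 7515 genes, 11.3% had an interval below 1, and among the 4247 genes with 44 to 422 summed reads, the range of these enzymes, the share was 10.6%. Fdft1 was also at least 2-fold lower, which 4.07% of all genes were. With total counts the split of the 8 was 1 higher (Hmgcs1) and 1 lower (Fdft1), in place of 0 and 2. Over all genes 6.20% then had an interval below 1, and the median log2 ratio was 0.18. The share of all genes above 1 was not counted under that scaling.

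**Figure D1:**
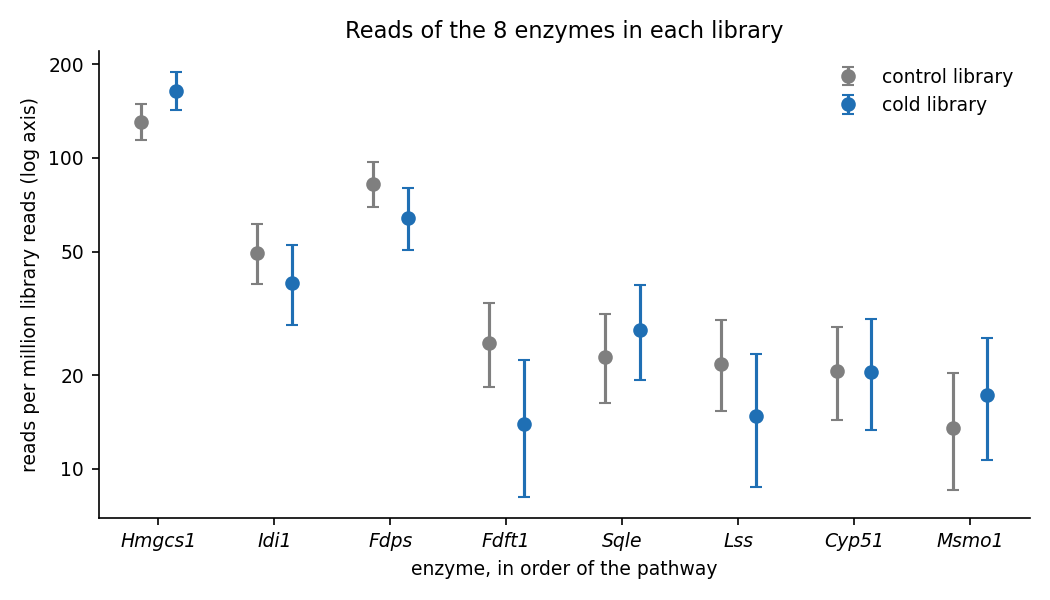
RPM (log axis) of the 8 enzymes in pathway order in the control library (grey) and the cold library (blue), with exact 95% counting intervals. Hmgcs1 has the most reads, 131 and 165 RPM, and Fdft1 shows the widest gap between the libraries, 25.3 and 14.0 RPM.

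Hmgcs1, the cytosolic synthase that joins acetoacetyl-CoA and acetyl-CoA to HMG-CoA, was counted 222 times in the control and 200 times after cold. That is 131 RPM (114 to 149) and 165 RPM (143 to 189). It was thus the enzyme with the most reads in both libraries and stood slightly higher in RPM in the cold one. The scaled ratio was 1.11 (0.913 to 1.35), which spans 1, and with total counts it was 1.26 (1.03 to 1.53). Among all genes compared, 61.7% had a lower ratio than Hmgcs1, so it lay near the middle of the distribution. Its gene lies on chromosome 13 of GRCm38 (119690379 to 119708260, plus strand).

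Idi1, the isomerase that readies isoprene units for joining, had 84 and 48 reads, or 49.5 RPM (39.5 to 61.2) and 39.5 RPM (29.1 to 52.4) in that order. It was lower in the cold library by 1.42-fold, with an interval (0.984 to 2.07) that just reached past 1. With DESeq2 size factors the ratio of 0.692 had an interval (0.475 to 0.998) just below 1. Idi1 (chromosome 13, 8885501 to 8892451, plus strand) was counted on a single annotated transcript, so no choice of isoform bears on it. Its processed pseudogene Gm13502, whose sequence words of 31 bases all occur in Idi1, had no reads, and reads of the pair may not be separable.

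Fdps, farnesyl diphosphate synthase, joins the isoprene units to the branch point from which sterols, ubiquinone side chains and protein prenyl groups are made. It had 140 control and 78 cold reads, or 82.4 RPM (69.4 to 97.3) and 64.2 RPM (50.7 to 80.1). In RPM the intervals overlapped, and the scaled value was 1.46-fold lower in the cold library (1.10 to 1.95). This call depended on the scaling: with total counts the ratio was 0.778 (0.582 to 1.03). The gene lies on chromosome 3 (89093588 to 89101959, minus strand).

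Hmgcs1 and Idi1 lie on the same chromosome and act a few steps apart, and their cold to control ratios differed by 1.58-fold (1.04 to 2.42), a comparison that no scaling of the libraries affects. Their promoters are printed here, as RefSeq on GRCm38.p6 gives them, from 250 bases before to 50 after the start site, to show what the start regions of these enzymes hold. Capitals mark the letters of 3 motifs searched on both strands: TCACNCCAC, a form of the sterol regulatory element, CCAAT, the box bound by NF-Y, and GGGCGG, the box bound by Sp1. The Hmgcs1 window is chr13:119690101-119690400 and the Idi1 window chr13:8885356-8885655, both on the plus strand.
Hmgcs1: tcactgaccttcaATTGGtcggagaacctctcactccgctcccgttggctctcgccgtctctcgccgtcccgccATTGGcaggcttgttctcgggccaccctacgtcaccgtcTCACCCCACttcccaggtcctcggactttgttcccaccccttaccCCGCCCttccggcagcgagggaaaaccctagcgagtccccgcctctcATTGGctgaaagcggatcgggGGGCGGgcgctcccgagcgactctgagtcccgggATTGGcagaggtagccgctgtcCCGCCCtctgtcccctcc
Idi1: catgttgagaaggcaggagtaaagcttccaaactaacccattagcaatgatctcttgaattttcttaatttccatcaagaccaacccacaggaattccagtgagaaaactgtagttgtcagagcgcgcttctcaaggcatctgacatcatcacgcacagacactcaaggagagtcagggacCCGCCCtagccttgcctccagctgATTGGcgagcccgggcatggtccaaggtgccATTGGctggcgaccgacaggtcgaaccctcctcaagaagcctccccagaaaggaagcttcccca

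RefSeq promoters were matched for 5 of the 8 enzymes (Hmgcs1, Idi1, Lss, Cyp51 and Msmo1), with 1 window each, and not for Sqle, Fdft1 and Fdps. The sterol element letters occurred in 1 of these 5 windows, that of Hmgcs1, as TCACCCCAC beginning 137 bases before the start site. They occurred in 1.24% of 32851 mouse promoter windows of the same length. CCAAT was in all 5 windows, 4 times in Hmgcs1, 3 times in Msmo1, 2 times in Idi1 and once in Lss and Cyp51, and in 37.4% of all windows. GGGCGG was in all 5 as well, and in 35.7% of all windows. In Hmgcs1 and Idi1 a CCAAT match on the opposite strand lay at the same distance, 45 bases before the RefSeq start site. The transcripts counted here start elsewhere in their annotation. Idi1-201 starts at 8885501, inside the Idi1 window, and Hmgcs1-201 and Hmgcs1-202 at 119690446 and 119690464, past the end of the Hmgcs1 window. None of these 3 motifs overlapped another in the 2 windows shown, and a match is a description of letters and no evidence of binding.

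Squalene is made by Fdft1 and oxidised by Sqle. Fdft1 was lower in the cold library, and Sqle had an interval that spanned 1. Fdft1, squalene synthase, commits farnesyl diphosphate to sterols. It had 43 control and 17 cold reads, or 25.3 RPM (18.3 to 34.1) and 14.0 RPM (8.15 to 22.4). It was lower in the cold library by 2.05-fold (1.15 to 3.84), the lowest ratio of the 8, and its interval stayed below 1 with total counts, at a ratio of 0.552 (0.295 to 0.989). Of all genes compared, 4.83% had a lower ratio. Fdft1 (chromosome 14, 63145150 to 63179578, minus strand) overlaps Ctsb, which runs the other way and had 1501 and 1066 reads. How strand was used in counting is not given in the sources used here.

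Sqle, squalene epoxidase, a rate-limiting enzyme of the sterol branch, had 39 control and 34 cold reads. This was 23.0 RPM (16.3 to 31.4) and 28.0 RPM (19.4 to 39.1), and the scaled ratio was 1.08 (0.658 to 1.75). No difference was detectable at this depth. Set against Fdft1, the ratio of Sqle was 2.21-fold higher (1.01 to 4.89), so the values of these neighbours in the pathway just differed by more than counting error. Sqle lies on chromosome 15 (59315077 to 59331192, plus strand).

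The sterol-forming steps had few reads and no enzyme with an interval off 1. Cyp51, the demethylase that acts on lanosterol, had 35 and 25 reads, or 20.6 RPM in both libraries (14.4 to 28.7 for the control, 13.3 to 30.4 after cold). Its scaled value was 1.14-fold lower (0.660 to 1.98). Msmo1, the methylsterol oxidase that takes off the next methyl groups, had 23 and 21 reads, or 13.5 RPM (8.59 to 20.3) and 17.3 RPM (10.7 to 26.4), a ratio of 1.13 (0.593 to 2.13). Both pairs of values overlapped widely. Cyp51 lies on chromosome 5 (4081145 to 4104746, minus strand), and only its 3' end overlaps Akap9 on the other strand (3928054 to 4081310). Msmo1 lies on chromosome 8 (64718139 to 64733792, minus strand).

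Lss, the cyclase that folds oxidised squalene into lanosterol, had 37 control and 18 cold reads, or 21.8 RPM (15.3 to 30.0) and 14.8 RPM (8.78 to 23.4). The summed value was 1.67-fold lower (0.925 to 3.11), with an interval that spans 1. The shares of its transcripts differed between the libraries. The coding transcript Lss-201 had 13 control and 14 cold reads, a ratio of 1.33 (0.579 to 3.07). Lss-204, annotated as holding a retained intron, had 23 and 3 reads, or 6.22-fold lower in the cold library (1.88 to 32.3). Its share of the Lss reads was 62.2% (44.8 to 77.5) for the control and 16.7% (3.58 to 41.4) after cold, a difference of -45.5 percentage points (-63.0 to -17.8 by Newcombe's method). The interval of Lss-204 lay below 1, while that of Lss-201 spanned 1 and also held the ratio of the sum, 0.600.

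On GRCm38, Lss-201 spans 76531607 to 76555479 of chromosome 10 and Lss-204 spans 76531612 to 76557138. The annotation gives the latter 2330 exonic bases that Lss-201 lacks, spread over a retained intron and an extra exon in the first part of the gene and a last exon that runs 1659 bases further. Nanopore reads of RNA begin at the 3' end and often stop before the 5' end. The deposited counts do not show whether reads were placed on Lss-204 by the intron or by the longer 3' end, so the difference cannot be assigned to splicing. The antisense gene 4930483K19Rik, which overlaps the end of Lss, had no reads in either library.

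**Figure D2:**
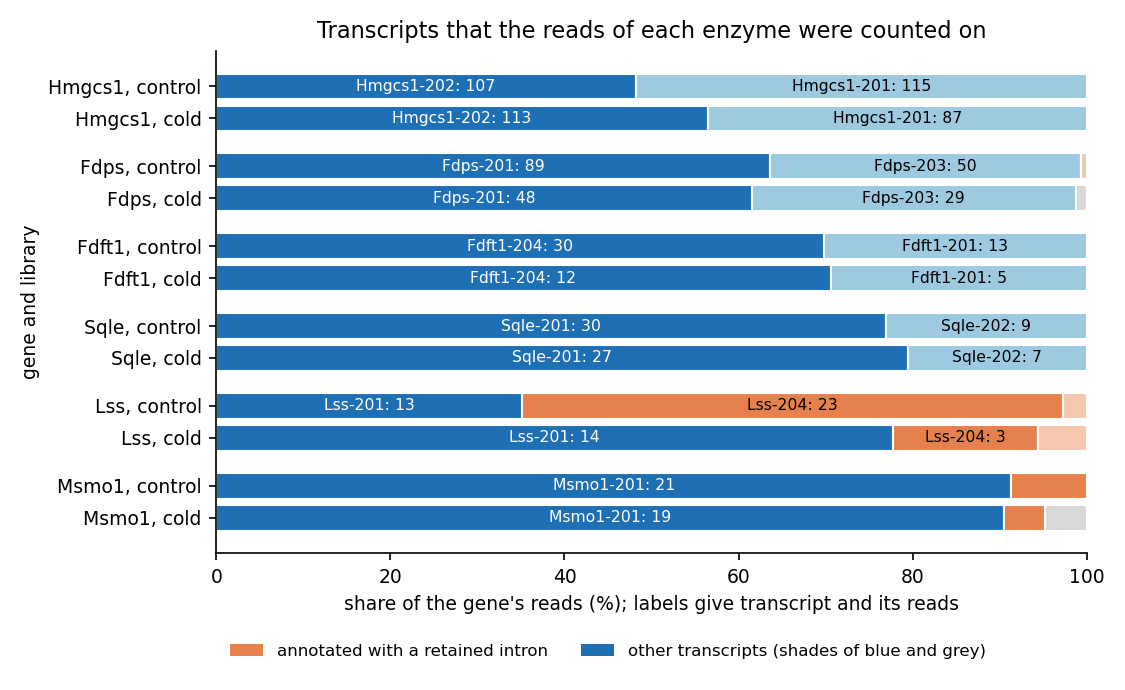
Share of each gene's reads (x axis, %) counted on its annotated transcripts, for 6 enzymes with more than 1 listed transcript, with the control bar above the cold bar. Numbers after a transcript name are its reads. Lss-204 (orange, annotated with a retained intron) takes 62.2% of the Lss control reads and 16.7% of the cold ones, and the first transcript of each other gene shifts by no more than 8.30 percentage points.

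Across the 8 enzymes 19 transcripts were listed, 11 of them with at least 20 reads over both libraries. Transcripts of the retained intron class took 27 control and 5 cold reads, mostly Lss-204, against 596 and 435 for coding transcripts. Apart from Lss, no transcript's share had an interval of the difference that excluded 0. Hmgcs1-202, whose last exon ends 178 bases further than that of Hmgcs1-201 and which has an additional early exon, had 107 of 222 control reads (48.2%, 41.5 to 55.0) and 113 of 200 cold reads (56.5%, 49.3 to 63.5). Its ratio was 1.30 (0.991 to 1.71), that of Hmgcs1-201, with 115 and 87 reads, 0.933 (0.698 to 1.24).

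Fdps was split between Fdps-201 and Fdps-203, which share their 3' end and differ in the first exons, at 89 and 50 control reads and 48 and 29 cold reads. The lower level in the cold library was of like size in both, with ratios of 0.665 (0.458 to 0.955) and 0.715 (0.436 to 1.15). Fdft1-204 and Fdft1-201 likewise had close ratios, 0.493 (0.230 to 0.992) on 30 and 12 reads, and 0.474 (0.132 to 1.42) on 13 and 5. Sqle-201 kept 76.9% (60.7 to 88.9) and 79.4% (62.1 to 91.3) of the Sqle reads, and Msmo1-201 91.3% (72.0 to 98.9) and 90.5% (69.6 to 98.8) of those of Msmo1. The 3' ends of both Fdft1 transcripts lie 3 bases apart and every base of Fdft1-201 is also in Fdft1-204, so truncated reads could fall on either.

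Within the set, the 28 pairs of enzymes were compared by the ratio of their cold to control ratios, with 95% intervals not adjusted for the number of pairs. The interval excluded 1 for 4 pairs. The like share for pairs of other genes was not computed, so this count is read as no result about the set. Of these, 3 set Hmgcs1 above another enzyme: above Fdft1 by 2.28-fold (1.22 to 4.40), above Fdps by 1.62-fold (1.14 to 2.30) and above Idi1 as given above. The other was Sqle above Fdft1. Hmgcs1 therefore made up more of the set in the cold library, 45.4% of the reads of the 8 enzymes (40.6 to 50.1) against 35.6% (31.9 to 39.5) in the control. Without Hmgcs1, a choice made after its values were seen, the remaining 7 summed to 401 and 241 reads and were 1.35-fold lower in the cold library (1.15 to 1.59), with a median log2 ratio of -0.50.

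The order of the enzymes by level is read in RPM. A native RNA read counts 1 molecule whatever its length. In RPM Hmgcs1 was above Fdps in both libraries, with intervals that did not overlap, as given above. Values per kilobase are thus no count of molecules and are given for comparison only. Per kilobase of the transcript with the most reads, the order of this pair in the control was the reverse, with Fdps at 66.6 RPM per kilobase (56.1 to 78.6) and Hmgcs1 at 37.7 (32.9 to 43.0). On that scale their cold values, 51.9 (41.0 to 64.7) and 47.5 (41.1 to 54.6), overlapped. Idi1 came after this pair in the control on both scales, at 16.3 RPM per kilobase (13.0 to 20.2). The control values of the other enzymes lay between 4.67 (Lss) and 8.33 (Sqle) RPM per kilobase, with overlapping intervals.

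Another 13 enzymes of the pathway, listed from textbook knowledge, leaned lower in the cold library. Set against their sum, the ratio of the 8 enzymes was 1.27-fold higher (1.07 to 1.51), a comparison that no scaling affects. Without Hmgcs1, left out after its values were seen, the scaled ratio of the remaining 7 was 0.741 (0.629 to 0.872). The scaled ratio of the 13 was 0.686 (0.609 to 0.771), and these intervals overlapped. Of the 12 with at least 20 summed reads, 4 had an interval below 1, beside 11.3% of all genes, and none above 1, with a median log2 ratio of -0.44. With total counts 3 were below 1, beside 6.20% of all genes, and the median was -0.27. Sc5d, a late desaturase of the sterol side, had the lowest ratio, 1.96-fold lower (1.39 to 2.80) on 116 and 48 reads. Acat2, the cytosolic thiolase that makes acetoacetyl-CoA for Hmgcs1, had the most reads, 258 and 136, and was 1.54-fold lower (1.25 to 1.91).

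Pmvk, which phosphorylates mevalonate again, was lower by 1.55-fold (1.14 to 2.12) on 126 and 66 reads, and Nsdhl, a sterol dehydrogenase, by 1.45-fold (1.03 to 2.07) on 95 and 53. With total counts the interval of Nsdhl spanned 1, at a ratio of 0.779 (0.546 to 1.10). These 2 were named after their values were seen. They and the 2 before them were the only 4 of the 13 with over 100 reads over both libraries. Hsd17b7 had the highest ratio of the list, 1.36 (0.698 to 2.68). Over these 21 enzymes, 1416 and 882 reads gave a value 1.30-fold lower in the cold library (1.20 to 1.42), and 15 of the 20 with at least 20 reads had a log2 ratio below 0, as did 50% of all genes.

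**Figure D3:**
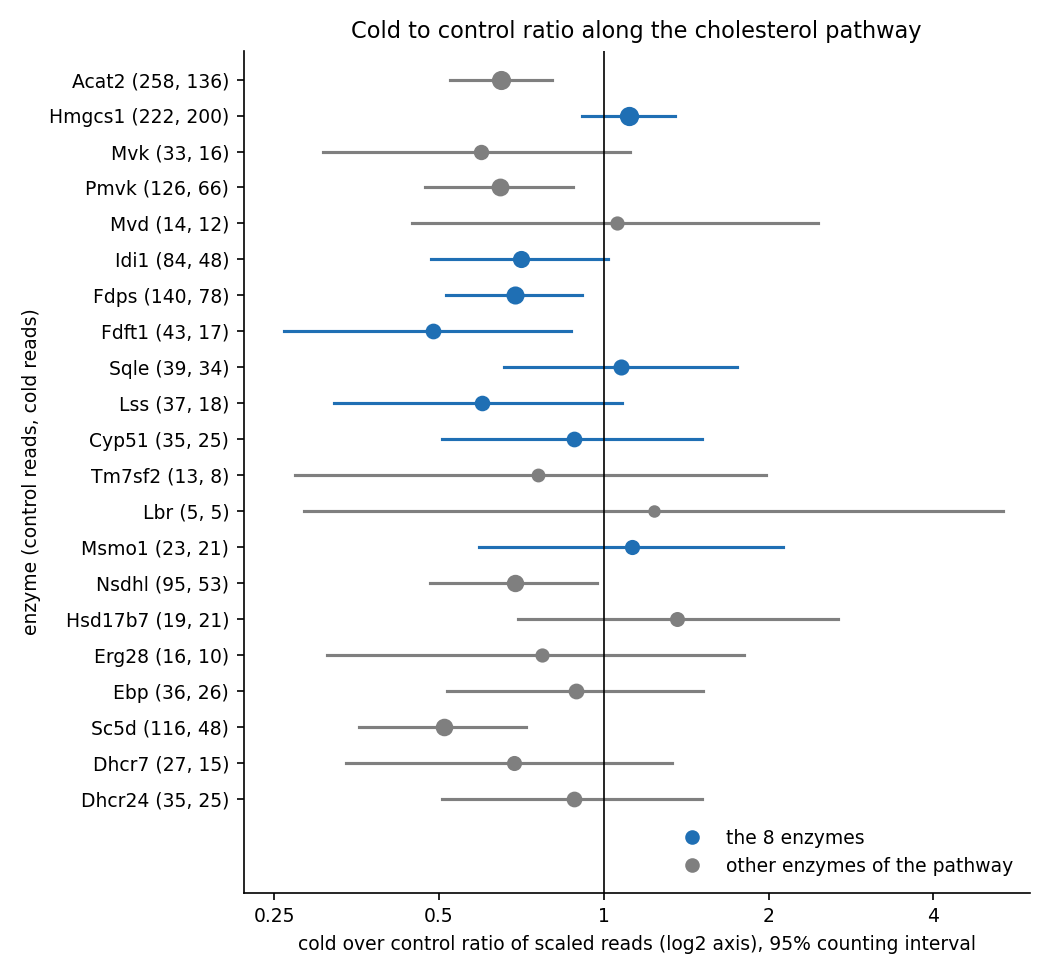
Cold over control ratio of scaled reads (log2 axis) with 95% counting intervals for 21 enzymes in pathway order, with control and cold reads beside each name and larger points for more reads. The intervals of Acat2, Pmvk, Fdps, Fdft1, Nsdhl and Sc5d lie below 1, and none lies above it.

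Genes that sense sterol and process the SREBP factors had a median log2 ratio of -0.10 over 10 measured members, with 2 intervals below 1 and none above. Over all genes 11.3% lay below 1, so a count of 2 is read as no result about the list. Insig1, which holds SREBP in the endoplasmic reticulum and is itself a target of these factors, had 347 and 100 reads and was 2.81-fold lower in the cold library (2.25 to 3.55). Srebf1, the gene of SREBP-1, was 1.54-fold lower (1.29 to 1.83) on 375 and 198 reads. For Srebf2, the gene of SREBP-2, 34 and 30 reads gave a ratio of 1.09 (0.643 to 1.83). Rnf145, a ubiquitin ligase, had the highest ratio of the list, 1.23 (0.605 to 2.51), on 18 reads in each library.

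The gap to fatty acid synthesis, the other arm fed by cytosolic acetyl-CoA, was wide. Its 15 listed genes summed to 59304 control and 12879 cold reads, 3.73-fold lower on scaled counts (3.66 to 3.81), with 12 of 14 measured intervals below 1, beside 11.3% of all genes. With total counts 11 were below 1, beside 6.20% of all genes, and the median log2 ratio of all genes was 0.18. Elovl6, a fatty acid elongase named after its value was seen, was then above 1 at 1.18 (1.07 to 1.30). The ratio of the 8 cholesterol enzymes was 3.26-fold above that of the fatty acid list (2.87 to 3.69), or 2.54-fold (2.23 to 2.88) with Fasn and Scd1 left out after their values were seen. This ratio of ratios does not depend on the scaling. Acly, which supplies cytosolic acetyl-CoA to both arms, had 3626 and 410 reads. It was counted in the fatty acid list, where its ratio of 0.139 (0.126 to 0.154) was the lowest. The gap without Acly was not computed. The list of fatty acid genes was known from earlier results to be lower, so the size of the gap is a description.

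**Figure D4:**
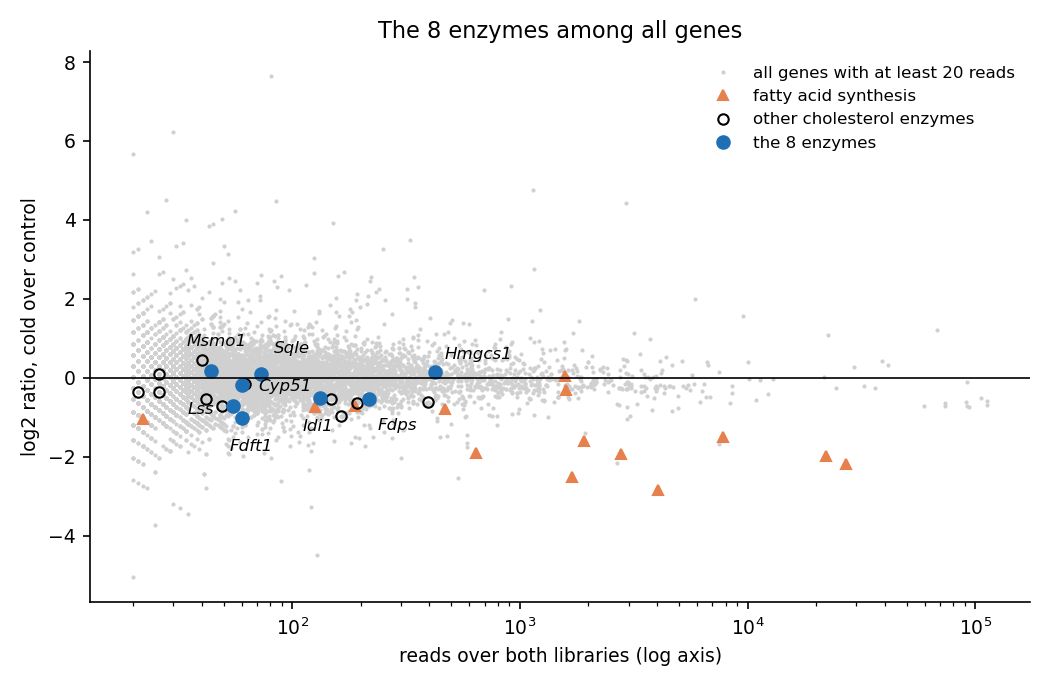
Log2 ratio of cold over control (y axis) against reads over both libraries (x axis, log) for all 7515 genes with at least 20 reads (grey), with the 8 enzymes in blue, other cholesterol enzymes as open circles and fatty acid synthesis genes as orange triangles. The 8 enzymes lie between -1.01 (Fdft1) and 0.17 (Msmo1), inside the cloud of genes of like depth, and most fatty acid synthesis genes lie below them.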

How the data were processed

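The authors deposited whole-number read counts per transcript for each library, not normalized, with a lowest listed count of 1. Per the submitters' processing notes, minimap2 was used and the build was GRCm38. For versions, the annotation release and the handling of reads that fit several transcripts, nothing is stated in the sources used. Per the labels' protocols, RNA went through 2 rounds of poly(A) selection and 500 ng entered each library. Transcripts were matched without version to GENCODE mouse M21 and summed to genes. Reads without a gene (0.0571% and 0.0652%) stayed in the library sizes.

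Counts were scaled with edgeR 4.0.16 (TMM factors 0.940 and 1.06). Ratio intervals are exact Clopper-Pearson intervals of the cold share of both counts (SciPy 1.17.1), and ratios of ratios have exact conditional intervals. Only the intervals of single ratios were checked, on simulated data that held counting error alone. Log2 ratios used a prior of 0.5 reads. Genes with at least 20 summed reads were compared. Alternatives were total counts with and without mitochondrially encoded genes, DESeq2 1.42.0 size factors, single or coding transcripts, merged copies, a prior of 2 reads and minimums of 1 and 100 reads. Of each list, the genes with the most reads, the lowest and the highest ratio were named, and Srebf2 and Insig1, of which the text gives part. Some genes of these pathways are not reported here and were left out of the lists. The enzymes and lists were chosen with earlier results of these data known.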

Additional observations from a re-analysis of the deposited data

How the results depend on the processing

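With 1 library per group no replicate could be left out. No paired analysis was possible because each group holds 1 library. The total-count scalings raised the median log2 ratio of all genes by 0.18, or by 0.13 without mitochondrially encoded genes. The ratio of the summed reads of the 8 enzymes, 0.873, then became 0.989 and 0.957, with intervals that spanned 1. The enzymes with an interval below 1 went from 2 to 1 under both scalings, Fdft1 remaining, and the enzymes at least 2-fold lower from 1 to 0. Of all genes, 6.20% and 7.45% lay below 1 under these 2 scalings. Nsdhl and Apoe also had intervals spanning 1 under both. DESeq2 size factors gave 3 enzymes below 1, beside 12.5% of all genes. The summed ratio also had an interval spanning 1 with the most abundant transcript alone (0.923), with coding transcripts alone (0.900) and without Lss-204 (0.900, an alternative chosen after seeing the data). The median log2 ratio of -0.34 was -0.36 with DESeq2 size factors and -0.01 with the most abundant transcript alone. Without Hmgcs1, an alternative also chosen after seeing the data, the median was -0.50. The median log2 ratio stayed below 0 under each alternative run. It was -0.03 without Lss-204. Of the single enzymes, Lss moved outside its interval, to a ratio of 1.33 with coding transcripts alone. Near-identical copies of Idi1 (Gm13502), Fdps (Gm3571 and Gm48326) and Cyp51 (Gm22464) had no reads, so merging them changed no value. Over all 7515 genes, intervals below 1 numbered 852, against 466 with total counts and 560 without mitochondrially encoded genes. A minimum of 100 reads left 2672 genes. Of these, 536 (20.1%, in place of 11.3%) had an interval below 1, and 513 had one above 1, in place of 846 of 7515. With that minimum the macrophage list lost both its 2 intervals above 1, the isoprenoid branches their 1 above and the white adipocyte list its 1 below. The genes behind these intervals had fewer than 100 reads and were no longer compared, while their ratios did not change. With a minimum of 1 read, sterol esterification and efflux gained 1 interval above 1, and the mitochondrial HMG-CoA list had 2 in place of 1. At this depth the intervals of Hmgcs1, Idi1, Sqle, Lss, Cyp51 and Msmo1 allow changes of either direction.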

Other observations

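Genes for taking up cholesterol and moving it within the cell, 15 in the list, had a median log2 ratio of 0.19 over 13 measured members, with 2 intervals above 1 and 1 below, near the shares over all genes, 11.3% in each direction. Cd36, a scavenger receptor that also takes up fatty acids, had 1505 and 1851 reads and a ratio of 1.52 (1.42 to 1.62). Vldlr, a receptor for triglyceride-rich lipoprotein, was at 1.61 (1.25 to 2.08) on 112 and 146 reads. Npc2, which carries cholesterol out of lysosomes and was named after its value was seen, was 1.69-fold lower (1.45 to 1.97) on 516 and 248 reads. Tmem97 had the lowest ratio of the list, 0.584 (0.233 to 1.35), on 19 and 9 reads. Of 5 measured genes for sterol esters and efflux, Apoe, the apolipoprotein, had an interval below 1 at 1.21-fold lower (1.07 to 1.36), and with total counts the interval of its ratio spanned 1 (0.836 to 1.06). Abca1, the cholesterol exporter, had 92 and 77 reads and a ratio of 1.03 (0.752 to 1.41).

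Branches that leave the pathway at the isoprenoid stage had a median log2 ratio of 0.02 over 8 measured genes. Pdss1, a subunit of the enzyme that builds the ubiquinone side chain, had the highest ratio there, 2.26 (1.35 to 3.89), on 24 and 44 reads. Fnta, a subunit of the protein farnesyltransferase, was at 1.05 (0.781 to 1.41) and Dhdds, which builds dolichol precursors, at 0.740 (0.330 to 1.59). In the mitochondrial handling of HMG-CoA and ketone bodies, Oxct1, which activates acetoacetate, had a ratio of 1.51 (1.15 to 1.97), and the thiolase Acat1 was at 0.906 (0.806 to 1.02).

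Other cell type markers were read in the same way. Of 4 measured macrophage markers 2 (Lyz2 and C1qa) had an interval above 1, and of 10 endothelial markers 2 (Cdh5 and Gpihbp1). Over all genes the share was 11.3%, and the names in parentheses were chosen after their values were seen. No measured marker of either list lay below 1. The lowest ratios were those of C1qc, 0.763 (0.351 to 1.60), and Emcn, 0.632 (0.355 to 1.09). Log2 ratios were below 0 for 1 of the 4 and 4 of the 10. Of 4 measured Schwann and nerve markers none had an interval off 1.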
